A study of Mus musculus with 8 samples.

Results

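The response of RAW 264.7 macrophages to lipopolysaccharide (LPS) in the absence of statin was measured over 11710 genes out of 24421 entries of the deposited table, namely all whose normalized counts averaged 10 or more across the 4 libraries compared. The lowest gene kept, Awat2, averaged 10.0, and the highest left out, P4ha2, 9.98. The series holds 8 libraries of RAW macrophages in 4 groups of 2: untreated cells (Ctrl), cells given LPS without statin (ctl LPS), cells given statin (statin) and statin-treated cells given LPS (statin LPS). Ctrl and ctl LPS make up the comparison here. The statin groups, used only for contrast, received a statin at 7 µM along with serum free of lipoproteins per the labels, and mevalonate per the study, and neither source says which serum the cells without statin were in. LPS was given at 100 ng/ml for 3 h in DMEM with bovine serum albumin, whereas cells were kept in DMEM with calf serum, and the sources used here do not say whether the Ctrl cells had the same change of medium. RAW 264.7, spelled so by the study and RAW 267.4 in the labels, is a single mouse macrophage line transformed by a murine leukaemia virus, and the labels do not say that the 2 libraries of a group came from separate cultures, so the p-values measure the spread between these libraries, which may be technical. Fewer cells of a kind and less RNA per cell cannot be told apart in such bulk libraries.

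LPS, a component of the outer membrane of Gram-negative bacteria, is handed by Cd14 to Toll-like receptor 4 (Tlr4). The adaptors Myd88 and Tirap then signal to NF-kB and the MAP kinases, which switch on cytokine, chemokine and immediate early genes, and the adaptors Ticam1 and Ticam2 signal through Tbk1 and Irf3 to the interferon beta gene. Secreted interferon acts back on the cells through the kinases Jak1 and Tyk2 to induce antiviral genes, while feedback regulators such as Tnfaip3 and the Socs proteins limit both arms.

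The Ctrl libraries held 46.5 and 37.0 M reads assigned to genes and the ctl LPS libraries 76.4 and 51.1 M (M, 1e6 reads). A normalized count is the read count divided by the size factor of the library, and 1 read was worth 0.781 to 1.25 normalized counts in these libraries. After this scaling the libraries still summed to 36.3 and 36.3 M normalized counts in Ctrl and to 64.2 and 64.0 M in ctl LPS. It took 870 and 827 genes to hold 50% of the counts in Ctrl and 399 and 396 in ctl LPS, and the 10 most counted genes held 6.58 and 7.17% against 10.5 and 10.6%. Direction therefore depends on the scaling: scaling every library to the same total (equal totals) moved the median log2 change of all genes by -0.82, from 0.03 to -0.79, and quantile normalization moved it by -0.11, to -0.13. Genes named below whose direction turns with either are marked as such, and list members that are not named can turn as well. The sources used here name no external RNA standard.

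The Ctrl pair was the noisier one. Over genes averaging at least 100 normalized counts, log2 ratios of replicate 1 to replicate 2 had a robust SD of 0.214 for Ctrl but 0.0642 for ctl LPS, and counting alone gives 0.0472 and 0.0503. In the ctl LPS pair 220 of the 11710 genes differed by more than 2-fold, 159 of them with replicate 1 the higher. Among markers of other cells, the complement genes C1qb and C1qc, made by tissue macrophages, had 806 and 529 normalized counts in ctl LPS replicate 1 and 0 and 1.25 in replicate 2, against 0 to 1.96 in Ctrl. The collagen genes Col1a2, Col3a1 and Col6a1, typical of fibroblasts, had 289, 165 and 166 in replicate 1, 1.25, 0 and 5.01 in replicate 2 and no read in Ctrl. The lipid carrier gene Apoe, named after its values were seen, had 6525 and 31.3 in ctl LPS and 139 and 132 in Ctrl. All 10 fibroblast markers had a read in ctl LPS replicate 1 and 3 had one in replicate 2. The list summed to 45.3 and 166 in Ctrl and to 1327 and 46.3 in ctl LPS. The receptor gene Pdgfrb made up most of the sum in Ctrl (43.7 and 166) and in ctl LPS replicate 2 (40.1). It had 94.1 in ctl LPS replicate 1. Tissue macrophage markers summed to 3472 and 6795 in Ctrl, mostly Gas6, a ligand of the receptors Axl and Mertk, and to 2503 and 576 in ctl LPS, and Cd163 and Lyve1 were at 0 in all 4 libraries. Such transcripts were also found in both statin LPS libraries, where C1qb had 149.6 and 169, Col1a2 119 and 135 and Apoe 1321 and 1616, and fibroblast markers summed to 438 and 600 in statin and to 646 and 754 in statin LPS. The part of these transcripts in the results was not tested. Of the genes over 2-fold apart in the ctl LPS pair 90 were called, and 30 of them were among the 2280 genes higher by more than 2-fold.

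**Figure D1:**
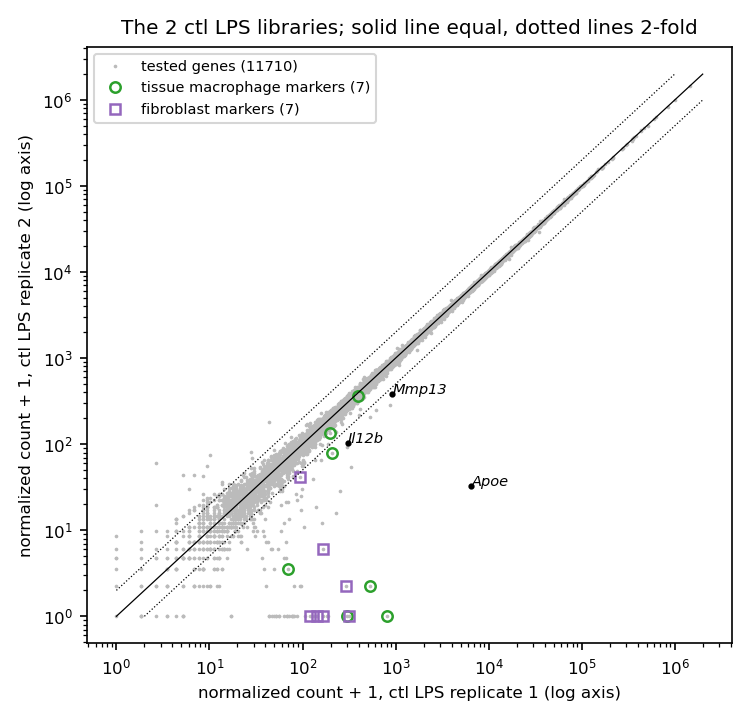
Normalized count plus 1 of each tested gene in ctl LPS replicate 1 (x axis) and replicate 2 (y axis), both on log axes, with equality as a solid line and 2-fold as dotted lines. Most genes lie on the line, while C1q and collagen genes among the markers of tissue macrophages (circles) and fibroblasts (squares), and Apoe, lie far to the side of replicate 1. Il12b and Mmp13, the latter labelled after its values were seen, lie on the same side.

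The cells carried the macrophage genes of their label. Of 29 macrophage identity genes 27 were tested, and their normalized counts summed to 598491 and 647306 in Ctrl and to 663649 and 664085 in ctl LPS. Lymphocyte, neutrophil and mast cell, and erythroid markers had no more than 16.3 normalized counts in any of the 4 libraries, apart from Lck, a Src-family kinase gene of T cells, which had 198 and 145 in Ctrl and 1538 and 1641 in ctl LPS, and S100a8, a neutrophil alarmin gene, which had 25.8 and 9.80 in Ctrl and 5.88 and 1.25 in ctl LPS. Dendritic cell markers summed to 291 and 603 in Ctrl and to 8002 and 8040 in ctl LPS, mostly Fscn1, which encodes the actin bundler fascin (9.37 and 6.86 to 5499 and 5569), and the integrin gene Itgax (185 and 482 to 2134 and 2097). All 4 tested genes of the 10 on this list were called higher, also with equal totals, against 38.4% of all genes as deposited. Cd209a and Clec9a, named with Flt3, Xcr1 and the genes of the next sentence after their values were seen, had no read in ctl LPS, Flt3 had 0 and 1.25, and Xcr1 had 3.90 and 1.96 in Ctrl and 17.6 and 22.5 in ctl LPS. Of the endothelial markers Kdr, a VEGF receptor gene, went from 8.59 and 6.86 to 476 and 459 and the cadherin gene Cdh5 from 4.68 and 0.980 to 31.1 and 31.3, while Pecam1 had no more than 5.88 and the keratin genes Krt5, Krt8, Krt14 and Krt18 had 0 in all 4 libraries. Whether these counts come from other cells was not tested.

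The comparison of ctl LPS with Ctrl asks what LPS does to macrophages that received no statin. By limma, fitted to log2 values with 1 normalized count added and with Benjamini-Hochberg adjustment, 4496 of 11710 genes were higher (38.4%) and 4154 lower (35.5%) at an adjusted p under 0.05, and 3060 were not called. By more than 2-fold 2280 were higher (19.5%) and 2024 lower (17.3%). Large changes were mostly rises: 485 genes rose and 122 fell by more than 16-fold, and 131 rose and 1 fell by more than 128-fold. The 2 groups did not overlap in 10370 genes, 88.6% of those tested. With equal totals 2086 were higher (17.8%) and 7867 lower (67.2%), so that 21.0% of calls were rises, against 52.0% as deposited and 43.3% with quantile normalization. All 4154 genes called lower were lower in both scalings, whereas of those called higher 2086 were higher in both and 1182 were called lower with equal totals. Equal totals lower the change of each gene by construction, so no fall could turn there. These counts thus do not show falls to be firmer than rises. Without ctl LPS replicate 1 the fit called 3088 higher and 2801 lower, and without replicate 2 3177 and 2766, the lone library being assumed to vary like the Ctrl pair.

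**Figure D2:**
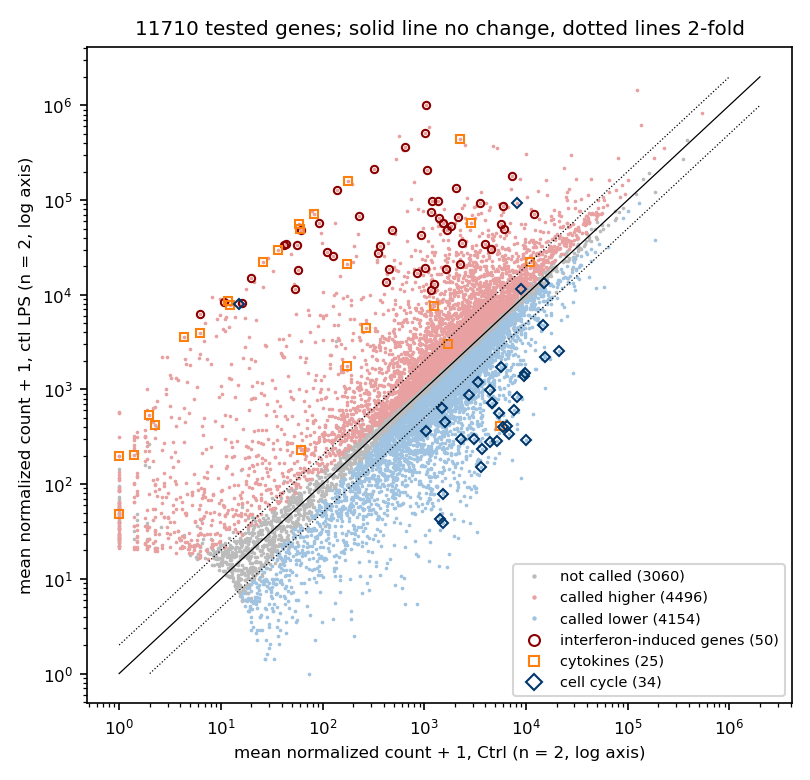
Mean normalized count plus 1 of each tested gene in Ctrl (x axis) and ctl LPS (y axis), n = 2 libraries each, on log axes, with no change as a solid line and 2-fold as dotted lines. Interferon-induced genes (circles) and all cytokine genes but 1 (squares) lie above the line, most cell cycle genes (diamonds) lie below it, and rises reach further from the line than falls.

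Of the lists of genes described here, chemokines and cytokines had the highest median changes. The tumour necrosis factor gene Tnf, on chromosome 17 from 35199381 to 35202007 (GRCm38, as all positions here), had 2311 and 2147 normalized counts in the Ctrl libraries and 429352 and 449283 in the ctl LPS libraries, a log2 change of 7.62 ± 0.08 (SE, adjusted p = 1.19e-06). Il1b, which encodes interleukin-1 beta, went from 182 and 169.6 to 160572 and 161090, or 9.83 ± 0.06 on the log2 scale. Il6, the gene of the acute phase cytokine interleukin-6, went from 22.6 and 27.4 to 22543 and 21827, or 9.74 ± 0.12. In each of these genes the ctl LPS libraries lay more than 100-fold above both Ctrl libraries and differed from each other by less than 10%. Of 25 tested cytokine genes 24 rose and 1 fell, against 38.4% and 35.5% of all genes, with a median log2 change of 7.62 (7.54 with the 2 genes at 0 reads in Ctrl set to their lower bound). Lif, which encodes leukemia inhibitory factor, (53.9 and 60.8 to 55343 and 55862) and the granulocyte growth factor gene Csf3 (4.68 and 1.96 to 3617 and 3507) rose by 9.90 and 9.76. Csf2, the gene of the related factor GM-CSF, had 0 reads in Ctrl and 393 in ctl LPS, at least 152-fold higher, taking 3 reads over the group as the floor. Igf1, a growth factor gene of resting macrophages, was the 1 cytokine list gene that fell, from 4785 and 6223 to 445 and 369 (-3.75 ± 0.16, adjusted p = 3.44e-05).

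Interleukin-10 and interleukin-12 genes stayed at low counts. Il10, an anti-inflammatory cytokine gene, had 0 reads in both Ctrl libraries and 59.6 and 36.3 normalized counts in ctl LPS, 100 reads in all, at least 38.6-fold higher. Il12b, which encodes the shared subunit of interleukins 12 and 23, had 1 read in Ctrl and 304 and 101 normalized counts in ctl LPS, a read ratio of 512 (exact 95% interval 91.5 to 20288, for counting error only). The 2 ctl LPS libraries thus lay further apart for these genes than for Tnf or Il6, with replicate 1, which of the 2 also held more of the C1q and collagen transcripts, the higher in both, and the part of that library in their values was not tested.

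All 17 tested chemokine genes rose, against 38.4% of all genes, with a median of 7.65. Cxcl10, an interferon-induced attractant of T cells, went from 575 and 564 to 470798 and 466892 (9.68 ± 0.06, adjusted p = 7.86e-07), and Cxcl11, a ligand of the same receptor, from 77.3 and 77.4 to 74899 and 77812 (9.93 ± 0.06). Ccl22, a chemokine gene that acts through Ccr4, went from 35.1 and 20.6 to 24740.5 and 24693 and Ccl5 (RANTES) from 212 and 174 to 145267 and 148827. Ccl3, which encodes the inflammatory chemokine MIP-1 alpha, started from 2341 and 2741 and reached 382308 and 386510. In GENCODE M21 41.7% of the exonic length of Cxcl11 overlaps Gm2673 on the other strand, and whether reads were counted by strand is not stated.

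**Figure D3:**
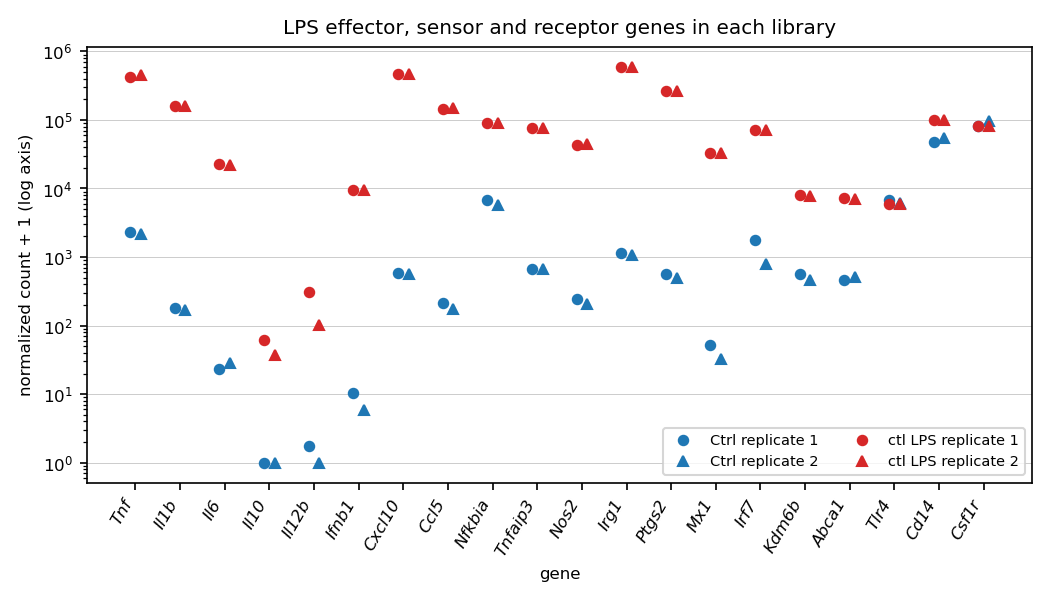
Normalized count plus 1 (log axis) of 20 genes of LPS sensing and response in each of the 4 libraries, Ctrl in blue and ctl LPS in red, replicate 1 as circles and replicate 2 as triangles. In the first 17 genes both ctl LPS libraries lie above both Ctrl libraries, while for the receptors Tlr4 and Csf1r the groups lie close together and for Cd14 about 2-fold apart as deposited, a direction that turns with quantile normalization.

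Some of these genes have letters in their promoter windows that match known sites of the pathway. Windows of 300 bases, from 250 before to 50 after the start site, were taken from RefSeq (GRCm38.p6) for 12 of 20 LPS effector, sensor and receptor genes, and 5 of them held a match to the kappaB consensus, bound by NF-kB, or to the core of the interferon-stimulated response element, TTTC, any 2 bases and TTTC, bound by Irf factors. These 5 windows are shown because they hold such a match, 5′ to 3′ on the gene's strand, with matches on either strand in capitals.
Il6, chr5:30012864-30013163, plus strand: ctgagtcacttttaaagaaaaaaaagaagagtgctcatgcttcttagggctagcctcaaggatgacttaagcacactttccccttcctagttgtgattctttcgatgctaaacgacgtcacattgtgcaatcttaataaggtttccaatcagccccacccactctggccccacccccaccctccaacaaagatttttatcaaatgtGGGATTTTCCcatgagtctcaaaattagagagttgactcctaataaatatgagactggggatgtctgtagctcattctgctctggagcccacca
Ifnb1, chr4:88522745-88523044, minus strand: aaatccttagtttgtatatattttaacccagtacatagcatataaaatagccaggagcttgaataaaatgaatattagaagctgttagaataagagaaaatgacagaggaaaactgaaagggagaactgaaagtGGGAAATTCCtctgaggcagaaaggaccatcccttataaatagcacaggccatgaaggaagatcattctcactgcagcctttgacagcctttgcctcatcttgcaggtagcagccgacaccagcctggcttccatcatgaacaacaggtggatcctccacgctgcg
Cxcl10, chr5:92348840-92349139, minus strand: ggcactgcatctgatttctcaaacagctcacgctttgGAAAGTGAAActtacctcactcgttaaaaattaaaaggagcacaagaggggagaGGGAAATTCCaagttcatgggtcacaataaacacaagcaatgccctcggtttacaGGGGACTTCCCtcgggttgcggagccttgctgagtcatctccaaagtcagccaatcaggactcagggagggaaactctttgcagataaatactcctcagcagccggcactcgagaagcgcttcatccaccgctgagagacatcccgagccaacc
Nfkbia, chr12:55492598-55492897, minus strand: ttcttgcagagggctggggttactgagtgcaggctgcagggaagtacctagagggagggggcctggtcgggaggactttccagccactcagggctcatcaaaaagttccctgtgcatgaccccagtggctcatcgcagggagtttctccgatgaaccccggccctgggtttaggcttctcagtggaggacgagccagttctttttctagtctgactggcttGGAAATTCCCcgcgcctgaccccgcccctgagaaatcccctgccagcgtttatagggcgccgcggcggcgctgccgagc
Tnfaip3, chr10:19015361-19015660, minus strand: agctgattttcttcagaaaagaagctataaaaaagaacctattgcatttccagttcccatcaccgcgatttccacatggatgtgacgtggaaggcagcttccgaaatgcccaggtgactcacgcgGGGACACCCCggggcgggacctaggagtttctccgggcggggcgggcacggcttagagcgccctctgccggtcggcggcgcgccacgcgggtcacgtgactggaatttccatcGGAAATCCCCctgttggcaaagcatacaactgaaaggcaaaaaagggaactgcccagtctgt
The Il6 window has 1 kappaB match, at -44 to -35 from the start site, and that of Ifnb1 has 1 at -116 to -107. The Cxcl10 window has a response element core at -213 to -204, read on the other strand, a kappaB match at -159 to -150 and 2 overlapping ones from -104 to -94. The Nfkbia window has a kappaB match at -29 to -20 and the Tnfaip3 window, that of 1 of 2 start sites of the gene, has matches at -125 to -116 and -12 to -3. No match in the windows of Tnf, Il1b, Il12b, Acod1, Ptgs2, Irf7 and Abca1 says only that these letters are not there.

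Over the 7484 tested genes with a single window, 3.59% held the response element core, 9.97% a kappaB match, 4.73% the AP-1 site TGANTCA and 3.58% the cAMP response element TGACGTCA. In the 1377 windows of genes called higher by more than 2-fold the shares were 8.28%, 12.2%, 7.63% and 3.63%. In the 1310 windows of genes called lower by more than 2-fold they were 2.29%, 9.31%, 4.35% and 2.82%. The response element core was held by 57 of 303 windows of genes that rose more than 16-fold (18.8%) and by 19 of 34 windows of the interferon-induced genes described below (55.9%), and kappaB matches by 10 of 26 windows of cytokine and chemokine genes (38.5%). These shares are descriptions of letters in the windows and not of binding.

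The interferon arm rose from ligand to effectors. Ifnb1, the interferon beta gene on chromosome 4 (88522025 to 88522774), had 9.37 and 4.90 normalized counts in Ctrl and 9401 and 9641 in ctl LPS, a log2 change of 10.25 ± 0.28 (adjusted p = 1.05e-05). The interferon alpha genes Ifna2 and Ifna4, named after their values were seen, had no read in Ctrl and no more than 4.2 normalized counts in ctl LPS. Of 20 tested genes of interferons, their receptors, STAT and IRF factors 17 rose and 3 fell, against 38.4% and 35.5% of all genes. The median was 2.49. With equal totals 15 were higher and 5 lower. Irf7, an interferon-induced activator of interferon genes, went from 1759.7 and 786 to 71430.1 and 71821 and Irf1 from 963 and 978 to 76931 and 76910.4. The 3 that fell did so by little: Ifngr1 and Ifngr2, the subunits of the interferon gamma receptor, by 0.35 and 0.46, and Irf3, the factor that LPS signalling activates at the protein level, by 0.44 on the log2 scale. The calls of Ifngr1 and Irf3 were lost without either ctl LPS library, leaving 1 fall.

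Every one of the 50 tested interferon-induced genes rose in both scalings, against 38.4% of all genes as deposited. The median was 6.12 and the smallest rise 2.56. Rsad2, which encodes the antiviral enzyme viperin, had 1091 and 999 normalized counts in Ctrl and 1006980 and 1006990 in ctl LPS (9.91 ± 0.08, adjusted p = 9.45e-07). Slfn1, of the Schlafen growth regulators, went from 5.47 and 4.90 to 6304 and 6069.6, and Gbp5, a guanylate-binding GTPase gene, from 157 and 116 to 128556 and 127559. Mx1, another antiviral GTPase gene, went from 50.7 and 31.4 to 33298 and 33316 (9.67 ± 0.23), and its Ctrl libraries differed by more than its ctl LPS libraries. Cmpk2, a mitochondrial nucleotide kinase gene that lies beside Rsad2, went from 707 and 599 to 359153 and 360342, and Ifit2, of the family that binds foreign RNA, from 1102 and 952 to 517632 and 501961. Several of these families have near-identical copies, among them Ifit, Slfn, Oas and Gbp genes, between which the counting may have split reads.

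Receptors and adaptors of the pathway had smaller changes. Tlr4 itself was 6860.2 and 6141 in Ctrl and 6002 and 6015 in ctl LPS (-0.11 ± 0.07, adjusted p = 0.224), not called, and called lower with equal totals (-0.93), with quantile normalization (-0.77) and without Ctrl replicate 2 (-0.19). Its coreceptor gene Cd14 was 48003 and 54582 in Ctrl and 98761 and 99346 in ctl LPS, called higher by 0.95 ± 0.10 (adjusted p = 0.00075), a call lost with equal totals (0.13) and without either ctl LPS library, and turned with quantile normalization (-0.28). Of 25 tested genes of the list 20 were higher and 4 lower, against 38.4% and 35.5% of all genes. The median was 1.13 (0.31 with equal totals, where 13 were higher and 9 lower). Without ctl LPS replicate 1, 15 were called higher and 2 lower. The largest rises were of Tlr3, the receptor for double-stranded RNA, from 433 and 375 to 10102 and 10201, of the kinase gene Ikbke from 1211 and 1360.4 to 28433 and 28665, and of Map3k8 (Tpl2), which activates the ERK pathway, from 275 and 385 to 4035 and 4155. Tlr13, a receptor for bacterial ribosomal RNA, fell from 3908 and 5307 to 675 and 613 (-2.82 ± 0.16), and Traf3, a ubiquitin ligase that links the adaptors to Tbk1, from 2355 and 2212 to 885 and 865 (-1.38 ± 0.07). Irak1 and Irak4, kinases downstream of Myd88, were lower by 0.24 and 0.52, calls that were lost without either ctl LPS library.

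Genes of NF-kB subunits and of their inhibitors rose. Of 14 subunit and IkB genes 13 rose and 1 fell, against 38.4% and 35.5% of all genes, with a median of 3.59. With equal totals 11 were higher and 2 lower. Nfkbia, which encodes IkB alpha, went from 6729 and 5803 to 90368 and 90062 (3.85 ± 0.09, adjusted p = 7.42e-06), and Nfkbiz, an atypical nuclear IkB, from 710.5 and 772 to 103062 and 103414 (7.12 ± 0.07). Nfkb2, the gene of the p100 precursor, went from 3498 and 3324 to 70456 and 71698 and Nfkbie from 909.5 and 1294 to 18740 and 18756. Ikbkg, the regulatory subunit of the kinase that releases NF-kB, was lower by 0.43, a call lost without either ctl LPS library.

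Among 22 feedback regulators 21 rose and 1 fell, against 38.4% and 35.5% of all genes, with a median of 4.15. With equal totals 16 were higher and 3 lower. Tnfaip3, the gene of the ubiquitin-editing enzyme A20, had 664 and 676 in Ctrl and 77404 and 77020.5 in ctl LPS (6.85 ± 0.05, adjusted p = 9.45e-07). Socs3 and Cish, brakes on JAK-STAT signalling, went from 206 and 219 to 25905 and 25743 and from 5.47 and 4.90 to 2308 and 2424. Otulin, which removes linear ubiquitin chains, fell from 2177 and 2289 to 1134 and 1106 (-1.0 ± 0.07).

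Of 25 immediate early genes 19 rose and 2 fell, against 38.4% and 35.5% of all genes, with a median of 2.53. With equal totals 16 were higher and 5 lower. Nr4a3, an orphan nuclear receptor gene, had 2.34 and 0.980 in Ctrl, 4 reads in all, and 2202 and 2202 in ctl LPS. Csrnp1, a nuclear transcription factor gene, went from 463 and 542 to 19594 and 20018 and the small Maf gene Maff from 112 and 121 to 2337 and 2244. At 3 h 2 members of the list were called lower as deposited: Jun, an AP-1 subunit gene, fell from 2997 and 4652 to 1192 and 1153 (-1.67 ± 0.21, adjusted p = 0.00137), and Nr4a2, a relative of Nr4a3, was 170.2 and 163 in Ctrl and 121 and 103 in ctl LPS (-0.57 ± 0.16, adjusted p = 0.0231), a call lost without either ctl LPS library and with quantile normalization.

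Enzymes of inflammatory mediators moved in both directions. Irg1 (Acod1), which makes the metabolite itaconate, went from 1141 and 1072 to 595090 and 595893 (9.07 ± 0.07, adjusted p = 9.45e-07). Nos2, the inducible nitric oxide synthase gene, went from 240.5 and 203 to 43794 and 44442 (7.64 ± 0.10) and Ptgs2, the inducible cyclooxygenase gene, from 561 and 496 to 268610 and 268492 (8.99 ± 0.08). Hdc, which makes histamine, and the endothelial lipase gene Lipg rose from 18.7 and 14.7 to 11355 and 11529.5 and from 3.12 and 8.82 to 4887 and 5138. Of the 25 tested genes of this list 20 rose and 4 fell, against 38.4% and 35.5% of all genes, with a median of 4.12. With equal totals 18 were higher and 6 lower. Ptgs1, the constitutive cyclooxygenase gene, fell from 308 and 235 to 84.8 and 60.1 (-1.90 ± 0.24), as did the leukotriene gene Alox5, which encodes 5-lipoxygenase, from 3005 and 3237 to 1371 and 1369.7 (-1.19 ± 0.07). Alox5ap, its partner, was lower by 0.50, a call lost without either ctl LPS library.

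Antigen presentation and costimulation genes rose in 22 of 25 cases and fell in 1, against 38.4% and 35.5% of all genes, with a median of 2.72. Cd40, a costimulatory receptor gene, went from 136 and 128 to 56444 and 58262 (8.75 ± 0.06), Cd274, which encodes the checkpoint ligand PD-L1, from 339 and 533 to 35447 and 35084 and Icosl from 84.3 and 117 to 5904 and 5939. Ciita, the master regulator of MHC class II, was 27.3 and 52.9 in Ctrl and 15.1 and 11.3 in ctl LPS (-1.47 ± 0.43, adjusted p = 0.0268), a call that was lost without any one of Ctrl replicate 2 and the ctl LPS libraries. Of 28 genes of cell death and the inflammasome 25 rose and 1 fell, against 38.4% and 35.5% of all genes. The median was 2.5. With equal totals 21 were higher and 6 lower. Nlrp3, the inflammasome sensor gene, went from 3692 and 2792 to 85437 and 86510.5 (4.74 ± 0.14), the death receptor gene Fas from 165 and 216 to 8874 and 8677 and Bcl2a1a, a survival gene with near-identical copies, from 7.81 and 4.90 to 2089 and 2105. Bax, a pore-forming death effector, was lower by 0.38, a call lost without either ctl LPS library.

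Macrophage identity genes were divided. Of 27 tested 16 were higher, 4 lower and 7 not called, against 38.4% higher and 35.5% lower over all genes. The median was 1.02 (0.20 with equal totals, where 12 were higher and 10 lower). Csf1r, the receptor through which the lineage is maintained, was 82140.4 and 97952 in Ctrl and 81045 and 82787 in ctl LPS (-0.13 ± 0.12, adjusted p = 0.366), not called, and called lower with quantile normalization (-1.70), with equal totals (-0.95) and without Ctrl replicate 1 (-0.26). Those that fell included Cx3cr1, the fractalkine receptor, from 17094 and 16997 to 2125 and 2079.5 (-3.02 ± 0.05), the lineage factor gene Cebpa from 2768 and 3202 to 381 and 375.6 (-2.97 ± 0.10) and the lipid receptor gene Trem2 from 11025 and 11792 to 4432 and 4612. The receptors for dying cells Axl and Mertk and the factor Maf rose from low counts, Axl from 49.2 and 30.4 to 3393 and 3350.3, Maf from 21.9 and 71.5 to 1081 and 831 and Mertk from 1.56 and 21.6 to 320.1 and 229, where the Ctrl libraries lay over 10-fold apart and the call was lost without either ctl LPS library. Of 15 genes of alternative activation 10 were tested, 6 of them higher and 1 lower (5 and 2 with equal totals), against 38.4% and 35.5% of all genes. Arg1 and Retnla, which define that state, had 0 reads in all 4 libraries. Tgm2, a transglutaminase gene, rose from 397 and 651 to 6060.2 and 6026, Socs2 had 0 reads in Ctrl and 93 in ctl LPS, at least 35.9-fold higher, and Pparg, a lipid-sensing nuclear receptor gene, was 91.3 and 117 in Ctrl and 58.0 and 38.8 in ctl LPS (-1.11 ± 0.28), a call lost without ctl LPS replicate 2.

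**Figure D4:**
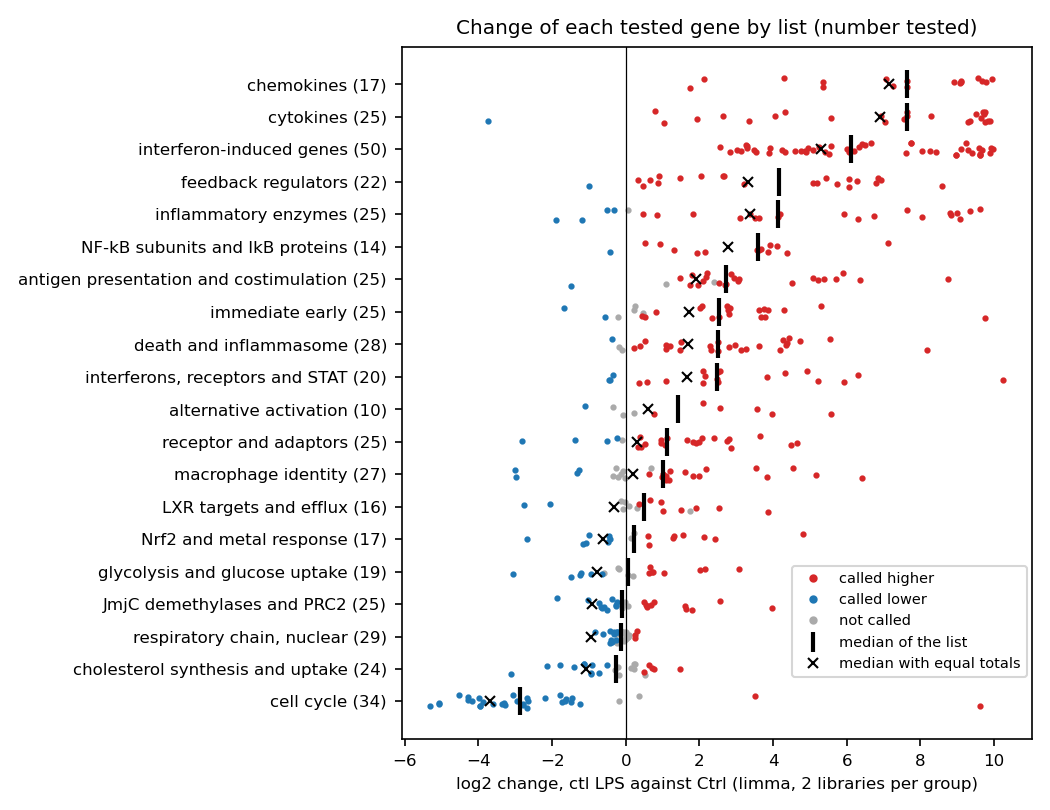
Log2 change of each tested gene, ctl LPS against Ctrl (x axis, limma, 2 libraries per group), by list with the number tested in parentheses, red where called higher, blue where called lower and grey where not called. Bars mark the median of each list as deposited and crosses the median with equal totals, which lies to the left of the bar in all lists and crosses 0 for the LXR, Nrf2 and glycolysis lists.

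Kdm6b (Jmjd3), an eraser of methylation on lysine 27 of histone H3, went from 564 and 455 to 7915 and 7876 (3.96 ± 0.11, adjusted p = 1.18e-05). It had the largest change of 25 JmjC demethylase and PRC2 genes, of which 10 were higher and 11 lower, near the shares of all genes (38.4% and 35.5%), with a median of -0.10 (-0.92 with equal totals, where 5 were higher and 18 lower). Without ctl LPS replicate 1, 9 were called higher and 6 lower. Jarid2, a PRC2 partner, rose from 1486 and 1471 to 8789.5 and 8599.9 and Ezh2, the PRC2 methyltransferase, fell from 4636 and 3011 to 1032 and 1005 (-1.87 ± 0.21). Kdm4a, Kdm5b and Kdm7a rose by 1.80, 1.64 and 1.59. Jmjd1c, Kdm4c, Kdm5a, Kdm5c and Ezh1 were called higher by 0.49 to 0.77 as deposited, but lay at -0.33 to -0.05 with equal totals. The calls of Jmjd1c and Kdm5a were also lost with quantile normalization, and that of Ezh1 without either ctl LPS library.

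Genes of cholesterol synthesis and uptake were lower in 11 and higher in 5 of 24 tested, against 35.5% lower and 38.4% higher over all genes (1 higher and 16 lower with equal totals, 2 and 7 without ctl LPS replicate 1), with a median of -0.26. Dhcr7, which carries out the last step of the pathway, fell from 2353 and 3109 to 307 and 319 (-3.11 ± 0.15, adjusted p = 4.73e-05), and Sqle, squalene epoxidase, from 4236 and 5809 to 1449.9 and 1407 (-1.80 ± 0.16). Acat2, the cytosolic thiolase of the first step, fell from 1062 and 1924 to 341 and 307. The isomerase gene Idi1, the squalene synthase gene Fdft1 and the regulator gene Srebf2 were called higher by 0.49, 0.63 and 0.78, and each turned with equal totals, at -0.33, -0.19 and -0.04. The calls of Idi1 and Fdft1 were also lost with quantile normalization, with TMM factors, by edgeR and without either ctl LPS library. Srebf2 also turned with quantile normalization (-0.12). Exons of Fdft1 overlap Ctsb on the other strand over 18.3% of their length.

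Among 16 genes of LXR, the sterol-activated nuclear receptor, and of cholesterol efflux 8 were higher and 2 lower, against 38.4% and 35.5% of all genes, with a median of 0.50 that turned to -0.32 with equal totals, where 5 were higher and 8 lower. Without ctl LPS replicate 1, 5 were called higher and 3 lower. Abca1, the cholesterol exporter, rose from 458 and 517 to 7240.5 and 7049.9 (3.87 ± 0.08, adjusted p = 5.87e-06), and Mylip, a ubiquitin ligase gene, from 746 and 703 to 4236 and 4129. Rxra, the partner of LXR, fell from 1584 and 1917 to 245 and 270.4 (-2.75 ± 0.13) and the desaturase gene Scd2 from 20771 and 30189 to 5991 and 5949 (-2.07 ± 0.18).

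Of 19 glycolysis and glucose uptake genes 8 were higher and 6 lower, near the 38.4% and 35.5% of all genes, with a median of 0.05 (-0.77 with equal totals and -1.01 with quantile normalization). The transporter gene Slc2a6 rose from 4927 and 7064 to 48738 and 50786 and Pfkp, a phosphofructokinase gene, from 9259 and 6896 to 35502 and 35691, while its relative Pfkl fell from 5321 and 4900.4 to 2193 and 2176. Pdk1, which holds pyruvate back from the mitochondria, fell from 3672 and 3112 to 433 and 378 (-3.06 ± 0.12), and Tpi1 and Pgam1 fell by 1.48 and 1.24. Slc16a3, a lactate exporter gene, fell by 0.65, and Ldha, which makes lactate, was lower by 0.93, a call lost without either ctl LPS library. Of 29 nuclear genes of the respiratory chain 12 were lower and 3 higher, against 35.5% and 38.4% of all genes, and none by more than 2-fold, with a median of -0.13. The median was -0.80 with quantile normalization and -0.95 with equal totals, where all 29 were called lower. Without ctl LPS replicate 1, 2 were called lower and none higher. Atp5g1, of the ATP synthase, fell by 0.84, the largest change of the list. Uqcrfs1 and Cox4i1 were called higher by 0.26 and 0.24 as deposited. Both were called lower with equal totals (-0.56 and -0.58) and with quantile normalization (-0.32 and -0.77), and each call was lost without either ctl LPS library. That of Cox4i1 was also lost with TMM factors, by edgeR and with the replicate block.

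Of 17 genes of the Nrf2 and metal response 8 were higher and 7 lower, not far from the 38.4% and 35.5% of all genes, with a median of 0.21 that turned to -0.61 with equal totals and -0.79 with quantile normalization. Without ctl LPS replicate 1, 6 were called higher and 4 lower. The metallothionein gene Mt2 rose from 3731 and 2442 to 86186 and 83583 (4.81 ± 0.20), although 73.5% of its exonic length overlaps Gm45774 on the other strand, and the autophagy receptor gene Sqstm1, which shares 17.3% of its exonic length with Mrnip on the other strand, rose from 31554 and 29937 to 164456 and 166438. Gclc and Gclm, the subunits of the enzyme that starts glutathione synthesis, fell from 4534 and 4204 to 686 and 666 (-2.69 ± 0.07) and from 2547 and 1574 to 907 and 885 (-1.16 ± 0.23), the latter call lost without either ctl LPS library. Srxn1, an antioxidant reductase gene, fell by 1.00, Hmox1, which degrades heme, by 1.07 and G6pdx, which feeds the NADPH pool, by 0.49.

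Among the lists, that of cell cycle genes held the most falls. Of 34 tested 30 fell, 2 rose and 2, Pcna and Bub1b, named after their values were seen, were not called, against 35.5% lower and 38.4% higher among all genes, with a median of -2.88 (-3.69 with equal totals). The counts were the same without ctl LPS replicate 1. E2f2, an activator of S phase genes, fell from 1605 and 1445 to 36.1 and 38.8 (-5.31 ± 0.13, adjusted p = 7.26e-06), and Ccna2, which encodes cyclin A2, from 11630.4 and 8396 to 291 and 295 (-5.07 ± 0.16). In both the groups lay more than 20-fold apart with no overlap. The 2 that rose were Cdkn1a, which encodes the cell cycle inhibitor p21, from 7836 and 8458 to 92667 and 93055 (3.51 ± 0.07), and Ccnd2, which encodes the G1 cyclin D2, from 25 and 2.94 to 8002 and 8013 (9.63 ± 0.87).

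Among called genes that averaged at least 50 normalized counts in the higher group and had a read in each library of the lower one, none of the 10 largest falls was in a list. Cd28, a costimulatory receptor gene on chromosome 1 (60716800 to 60773359), fell from 639 and 1042 to 5.04 and 3.76 (-7.25 ± 0.31, adjusted p = 3.41e-05), the largest of these falls. The chemokine receptor gene Cxcr4 fell from 977 and 1795 to 15.1 and 10.0 (-6.64 ± 0.36), and Hpgd, which inactivates prostaglandins, from 583 and 694 to 5.04 and 3.76 (-6.89 ± 0.24). Esco2, which acetylates cohesin in S phase, went from 1843 and 1660.3 to 21.0 and 13.8 and Fbxo5, an inhibitor of the anaphase-promoting complex, from 2467 and 1801 to 27.7 and 23.8. Ranbp3l, which encodes a Ran-binding protein, went from 3599.9 and 2977 to 34.4 and 26.3 and Kbtbd11, a Kelch and BTB protein gene that shares 24.8% of its exonic length with Gm37844 on the other strand, from 7003 and 10779 to 130.2 and 97.7. Thbd, the thrombomodulin gene, had 169 and 234 normalized counts in Ctrl and 3 reads in ctl LPS, a read ratio of 131 (exact 95% interval 44.7 to 639). In all 10 genes both ctl LPS libraries lay far below both Ctrl libraries. The remaining 2 were Depdc1b, from 707 and 499 to 10.1 and 3.76, and C130050O18Rik, from 1561 and 1750.4 to 10.9 and 13.8. Among the 10 largest rises, the membrane-to-actin linker gene Marcks, the only one outside the lists, went from 7.03 and 10.8 to 9159.99 and 8993 (9.87 ± 0.21).

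The added counts were concentrated, with 50% of them in 131 genes. Genes with a higher mean in ctl LPS gained 33.7 M normalized counts in all and those with a lower mean lost 5.94 M, values that are not divided by gene length. Both sums rest on the scaling as deposited. With equal totals gain and loss would be the same by construction, so these sums do not show that more RNA was gained than lost. The 10 genes that gained most held 17.7% of the gain and 100 genes held 45.6%. The 10 were Spp1, which encodes the secreted protein osteopontin (134029 and 110719 to 1470470 and 1461250, with 18.8% of its exonic length shared with Gm42793), Rsad2, Irg1, Ifit2, Actb, the beta actin gene (137818 and 132145 to 623646 and 630989), Cxcl10, Tnf, Ccl3, Marcksl1 (4113 and 5386 to 367926 and 373125) and Cmpk2. Actb, often used as a reference gene, was higher by 2.22 ± 0.14 (adjusted p = 0.00012), a call lost without ctl LPS replicate 1. The 10 that lost most were Gpnmb, a lysosomal glycoprotein gene (154316 and 221053 to 39103 and 37175, -2.28 ± 0.19), Lyz2, Pkm, Tubb5, Sirpa, Ftl1, Ptma, Slco4a1, S100a4 and Serinc3. Slco4a1, an organic anion transporter gene, fell furthest of them, from 25035 and 33626 to 1442 and 1505 (-4.30 ± 0.15). Sirpa, which encodes the receptor for the CD47 signal, fell from 46576 and 51232 to 11853 and 11631 and the tubulin gene Tubb5 from 65405 and 52085 to 11986 and 12311. Lyz2, lysozyme, was 342600 and 354295 in Ctrl and 271340 and 271675 in ctl LPS, Pkm, pyruvate kinase, was 223448 and 150707 and then 122244 and 122933, and neither was called (adjusted p = 0.0719 and 0.0547), although both were called lower with quantile normalization (-1.74 and -2.05), with equal totals (-1.18 and -1.40), by edgeR and DESeq2 and with either Ctrl library left out. Pkm was also called with TMM factors, with all 8 libraries in 1 fit and with the replicate block. The calls of Ftl1, Ptma and Serinc3 were lost without either ctl LPS library.

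In 78 of the 11710 genes no read was found in either Ctrl library, and in 1 gene none in either ctl LPS library. Since genes had to average 10 or more over the 4 libraries, a gene at 0 in Ctrl was kept only through its ctl LPS counts. That these genes were higher in ctl LPS is thus fixed by the filter. The highest of them in ctl LPS was Pdcd1, which encodes the checkpoint receptor PD-1, with 562 and 597 normalized counts, at least 442-fold higher than the floor of 3 reads over the Ctrl group. It was followed by AA467197 (538 and 592, at least 430-fold) and the pyrin domain gene Pydc4 (328 and 292, at least 241-fold). Unc80, a subunit of a sodium leak channel, the fatty acid elongase gene Elovl4, and Hamp, which encodes the iron hormone hepcidin, reached 202, 143 and 112 in replicate 1 and 189, 126 and 139 in replicate 2. AI854517 and the protease gene Adamts8 reached 113 and 100 in replicate 1 and 115 and 128 in replicate 2. The 10 highest also held Csf2 and Col1a2, and Col1a2 was the only one of the 10 seen almost solely in replicate 1.

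With statin the response to LPS differed in size in many genes. In a fit of all 8 libraries the log2 change with LPS differed between cells with and without statin for 6511 of the 11710 genes (55.6%). It was more negative with statin in 3535 and more positive in 2976, a split that turned with equal totals, where 1912 and 5947 were called. This difference uses the same Ctrl and ctl LPS libraries as the comparison above. Of the markers of other cells described above, C1qb had 0 and 0.94 normalized counts in statin, against 149.6 and 169 in statin LPS. Fibroblast markers, a list that holds Pdgfrb, summed to 438 and 600 in statin. The part of such transcripts in the difference was not tested. The rise of Il6 was 9.74 without statin and 4.69 with it, a difference of -5.05 ± 0.19 (SE, adjusted p = 1.03e-06), and that of Mx1 was 9.67 and 4.41, a difference of -5.26 ± 0.30 (adjusted p = 3.68e-06). For Ifnb1 and Irg1 the differences were -4.47 ± 0.38 and -3.75 ± 0.10. That of Nfkbia was smaller, at -0.78 ± 0.17 (adjusted p = 0.00543), and was not called with equal totals (-0.32) or quantile normalization (-0.30). The difference did not pass for Il10 (0.94 ± 0.62, adjusted p = 0.228), Il12b (-1.05 ± 0.80, 0.294), Tlr4 (0.04 ± 0.10, 0.775) or Cd14 (0.01 ± 0.14, 0.977), which does not show that these changes were alike. With equal totals it passed for Tlr4 (0.49) and Cd14 (0.46), both more positive with statin. Since a difference can come from the resting or the stimulated level, the levels with statin are given for Tnf, Il6 and Il1b. Tnf had 18289.5 and 14292 normalized counts with statin and 406149 and 406577 with statin and LPS. Il6 had 22.4 and 19.7 with statin and 539 and 600.3 with both. Il1b had 886 and 1520 with statin and 223873 and 233862 with both, against 160572 and 161090 in ctl LPS.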

How the data were processed

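RNA of RAW 264.7 macrophages was depleted of ribosomal RNA and sequenced as stranded libraries, 2 per group. Per the labels, the authors' notes list DESeq2 (1.18.1), HTSeq (0.9.1), STAR (2.5.3) and build mm10 in unstated roles. The methods of the study name Salmon instead, and the strand setting is not stated. The deposited signal, a normalized count, is the read count divided by a size factor, and 100% of values were whole reads within 0.01, with 37.0 to 76.4 M reads per library in this comparison.

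Genes were tested with limma (3.58.1, R 4.3.3, eBayes with trend) on log2 of the normalized count plus 1, so that folds of low genes are understated, with 2 residual degrees of freedom (4 for the statin contrast). Tests were two-sided with Benjamini-Hochberg adjustment over 11710 genes. Members and lists were chosen with earlier results of these data known, and some listed genes are ones the study turned on. Named genes were 20 effectors, the 10 largest rises and falls, 3 largest and opposing changes per list, the 10 most counts added and lost, and the 10 highest at 0 reads in Ctrl. Intervals and the floor of 3 reads cover counting error only. Alternatives were equal totals, quantile and TMM scaling, pseudocounts of 0.5 and 5, edgeR (4.0.16) and DESeq2 (1.42.0) on recovered reads, all 8 libraries in 1 fit, a replicate block and each library left out. Columns of the authors' own fold changes and p-values, 12 other per-sample columns and 17 genes whose symbols are spreadsheet dates were not used or not named. A few further genes that the naming rule selects are not reported here. Gene positions are from GENCODE M21. No label pairs the libraries by replicate number. The differences between replicates in Ctrl and in ctl LPS had a correlation of 0.0057 across 11710 genes. With 2 libraries per group this cannot show whether replicate numbers mark a shared batch.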

Additional observations from a re-analysis of the deposited data

Results flagged for a closer look

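The log2 change with LPS differed between cells with and without statin, by the test of the difference itself in a limma fit of all 8 libraries, in 6511 of 11710 genes (Benjamini-Hochberg adjusted p under 0.05). Among the 20 effector, sensor and receptor genes the change with statin minus that without was -2.97 for Tnf, -2.21 for Il1b, -5.05 for Il6, -4.47 for Ifnb1, -3.15 for Cxcl10 and -2.30 for Ccl5. For regulators it was -0.78 for Nfkbia, -3.11 for Tnfaip3, -3.37 for Irf7 and -2.11 for Kdm6b. For enzymes it was -3.04 for Nos2, -3.75 for Irg1 and -2.94 for Ptgs2, and it was -5.26 for the antiviral gene Mx1, -2.05 for the cholesterol exporter Abca1 and -0.59 for Csf1r. A negative value does not mean a lower level under LPS. Kdm6b had 3512 and 2647 in statin against 564 and 455 in Ctrl, and 11010 and 11021 in statin LPS against 7915 and 7876 in ctl LPS. Ptgs2 in statin LPS (424984 and 416387) was also above ctl LPS (268610 and 268492), whereas Nos2 (11534 and 9822) was below it (43794 and 44442). The values of Nfkbia and Csf1r were not called with equal totals or with quantile normalization (-0.30 for Nfkbia, 0.07 for Csf1r). The call of Csf1r was also lost without ctl LPS replicate 1 (-0.60) or 2 (-0.57) and without statin LPS replicate 1 (-0.61) or 2 (-0.56).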

How the results depend on the processing

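Limits lie mainly in the scaling and in having 2 libraries per group. With equal totals the counts were 2086 higher and 7867 lower, by more than 2-fold 1307 and 4779, and for the difference between cells with and without statin 5947 more positive and 1912 more negative. Leaving out each library in turn gave 3088 to 5050 genes higher and 2766 to 4666 lower. With the replicate block 4462 were higher and 4148 lower, edgeR called 4320 and 4330 and DESeq2 4298 and 4055. Directions that turned with equal totals were those of Jmjd1c (-0.13), Kdm4c (-0.23), Kdm5a (-0.27), Kdm5c (-0.054), Ezh1 (-0.33), Idi1 (-0.33), Fdft1 (-0.19), Srebf2 (-0.043), Uqcrfs1 (-0.56) and Cox4i1 (-0.58). With quantile normalization those of Cd14 (-0.28), Srebf2 (-0.12), Uqcrfs1 (-0.32), Cox4i1 (-0.77) and, for the difference with statin, Csf1r (0.072) turned. Of the 166 named genes 125 kept their call under all alternatives, and 24 calls were lost without ctl LPS replicate 1 and 24 without replicate 2, in fits that take the spread from the Ctrl pair alone. Equal totals lower the change of each gene by its construction, by less where counts are low, and the cause of the other changes was not tested. Genes with a few reads in 1 group, such as Il12b, Il10 and Thbd, are limited by depth.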
